A study of Ovis aries with 7 samples.

Results

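The genes TAC1, TAC3, NPVF, ADCYAP1 and GRP encode the precursors of small signalling peptides of hypothalamic neurons. They were measured in the hypothalamus of late-gestation sheep fetuses after a brief fall in maternal oxygen. The members were all non-control probes of 1-colour Agilent sheep arrays that carried these gene names. ADCYAP1 is listed on the array under its peptide's name, PACAP, and was matched through its RefSeq accession. This gave 9 of the 15008 probes and 5 of the 856 named genes. In the hypoxia group, 3 fetuses with indwelling catheters were exposed through a low-oxygen gas breathed by the ewe for 30 min and then recovered at normal oxygen for 30 min. In the control group, 4 catheterized fetuses of matched age stayed at normal oxygen for the same 60 min. Each array holds the whole hypothalamus of 1 fetus, so a level is a mean over all its nuclei and cell types. The labels name no strain or gestational day and do not say whether fetuses shared a ewe.

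TAC1 gives rise to substance P and neurokinin A, and TAC3 to neurokinin B. Both belong to the tachykinins, peptides with a common carboxyl end that act on G protein-coupled neurokinin receptors. Neurokinin B is made in arcuate neurons that drive the release of gonadotropin-releasing hormone. NPVF is the precursor of the RFamide-related peptides, also called gonadotropin-inhibitory hormone, made by neurons of the dorsomedial hypothalamus. ADCYAP1 encodes PACAP, a peptide that raises cyclic AMP in its target cells and takes part in the autonomic and endocrine response to stress. GRP is the mammalian relative of bombesin and is found in the suprachiasmatic and paraventricular nuclei.

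The TAC3 and NPVF probes are shown because each holds a stretch of the message that encodes the end of a peptide, with further bases around it. In the TAC3 probe the capitals mark the 24 bases whose translation holds the common tachykinin end and the signal for amidation and cleavage. In the NPVF probes the capitals mark the 12 bases that encode the end of an RFamide peptide with the signal after it.
TAC3 probe: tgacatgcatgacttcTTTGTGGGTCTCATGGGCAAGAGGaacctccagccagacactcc
NPVF main probe: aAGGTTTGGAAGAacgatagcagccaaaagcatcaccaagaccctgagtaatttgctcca
NPVF other probe: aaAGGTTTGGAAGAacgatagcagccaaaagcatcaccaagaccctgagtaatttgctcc
The NPVF probes share 59 of their 60 bases, so they read 1 stretch of the message and do not count as separate evidence. The end of one GRP probe overlaps the start of the other by 40 bases and that of the ADCYAP1 probes by 20, while the TAC1 probes do not overlap. For each gene the main probe is the one with the higher mean level, and TAC3 has only 1 probe. The main TAC1 probe was printed in 5 spots per array, and the SD of these spots lay between 0.05 and 0.13 on the log2 scale.

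Between 77.2% and 86.4% of the non-control spots of an array were well above background, the fewest on control replicate 1. Slide 1, as read from common scan times, held all hypoxia arrays, slide 2 the first pair of controls (replicates 1 and 2) and slide 3 the second pair (replicates 3 and 4), so slide and group cannot be told apart. Of 14 hypothalamic neuron markers, 10 were on the array and 9 of these were well above background on all 7 arrays. Their summed level, relative to the array's 75th percentile, was 19.4 to 33.2 in controls and 21.9 to 29.0 in hypoxia. Control replicate 4 stood apart in some anterior pituitary genes. The growth hormone gene GH was well above background on that array alone, and the log2 level of the prolactin gene PRL reached 1.13 there, while the first 3 controls ranged from -3.80 to -3.46 and the hypoxia arrays from -5.14 to -4.11. Of the 8 measured markers of anterior pituitary and pars tuberalis, of 9 listed, 7 were well above background on control replicate 4. On each other array 3 to 5 of them were. Their summed level was 3.92 to 7.75 in controls and 6.54 to 7.07 in hypoxia. Control replicate 4 did not stand apart in that sum, at 7.74. The sum is weighted most to LHB, the marker with the highest level on every array, so it says little about PRL and GH. In the pituitary hormone genes CGA, TSHB and LHB, control replicate 4 did not stand apart either. There control replicate 3 read 1.39, -3.16 and 2.30 and control replicate 4 read -2.51, -7.03 and 2.31. FSHB, the follicle-stimulating hormone beta gene, was well above background on control replicates 1 and 4, at -6.09 and -3.09. POU1F1, a defining factor of the anterior pituitary, was well above background on 0 arrays. Whether control replicate 4 held more pituitary tissue, and what share that would have in the results, was not tested. Each main difference is also given without control replicate 4.

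None of the 5 genes differed between hypoxia and control beyond the spread of the fetuses. All 9 probes were well above background on all 7 arrays, and 0 of 9 passed an adjusted p of 0.05 in limma, where 0.0157% of all 12711 tested probes did. At an unadjusted p under 0.05 the count was again 0 of 9 probes, against 15.7% of all probes, and 0 of 9 without moderation of the variances. In 0 of 9 probes did the groups lie apart, against 16.2% of all probes. The main probes of TAC1 and NPVF had a higher mean in hypoxia, and those of TAC3, ADCYAP1 and GRP a lower one. The median of the 5 log2 differences was -0.03, beside 0.03 over all tested probes. In whole tissue, fewer cells of a type and less RNA per cell cannot be told apart.

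**Figure D1:**
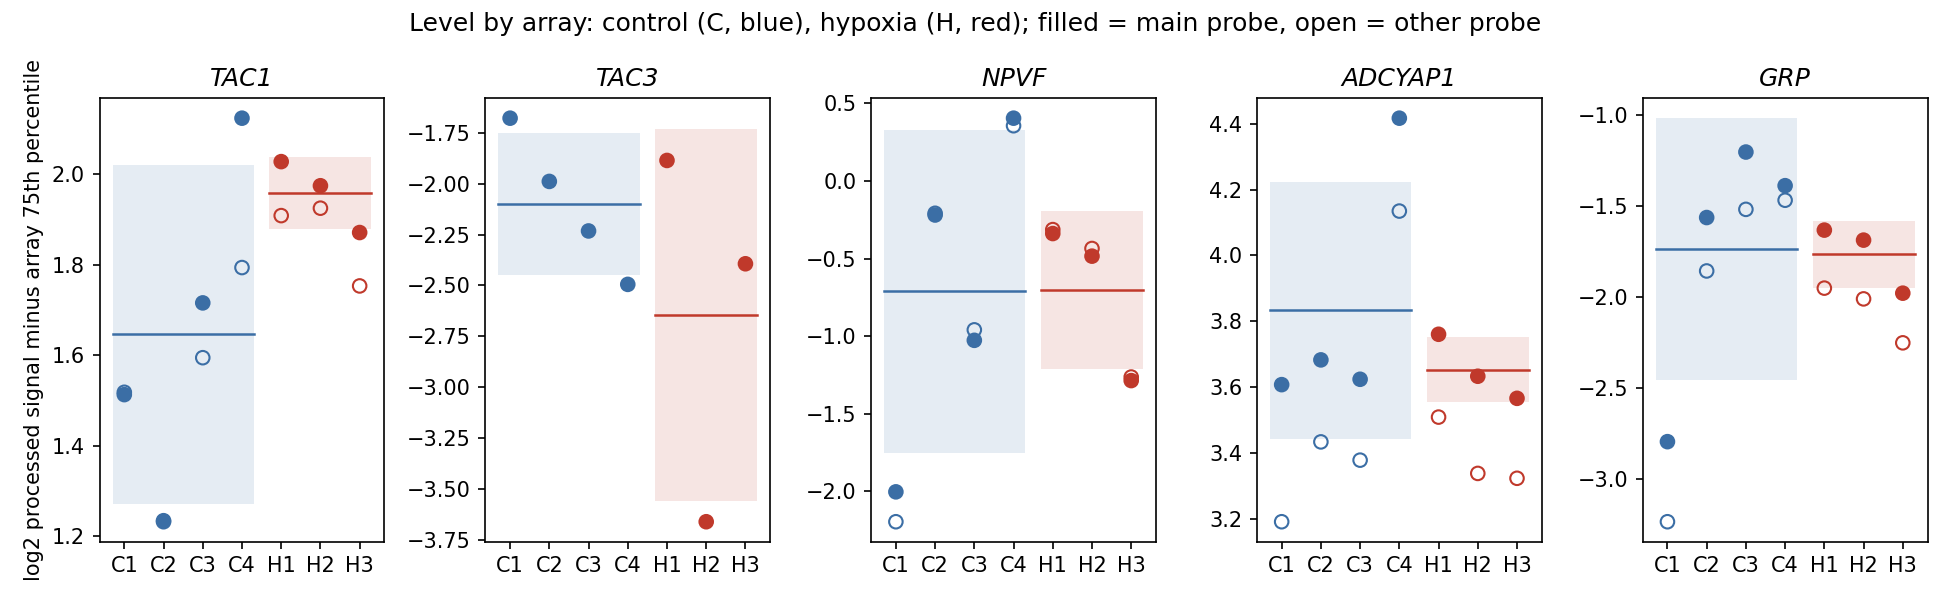
Log2 level of each probe by array, as the processed signal minus the 75th percentile of the array, in controls (C, blue) and hypoxia (H, red). Filled points are main probes and open points other probes, lines are group means and shaded bands 1 SD of the main probe, and the vertical scale differs between genes; in each panel the points of the groups overlap.

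TAC1 was the member with the narrowest hypoxia group and stood high in it. Its log2 level, which is the processed signal minus the 75th percentile of the array, was 2.03, 1.98 and 1.87 on hypoxia replicates 1 to 3. In controls it was 1.51, 1.23, 1.72 and 2.12 on replicates 1 to 4. All 3 hypoxia values lay above 3 of the control values, and only control replicate 4 lay above them. The means were 1.96 ± 0.08 (SD, n = 3) in hypoxia and 1.65 ± 0.37 (SD, n = 4) in control, a log2 difference of 0.31 (SE 0.20, adjusted p = 0.473 in limma). The 95% interval ran from -0.16 to 0.78, that is from 0.895-fold to 1.72-fold.

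The other TAC1 probe reads a separate stretch and gave the same picture. Its levels were 1.91, 1.93 and 1.75 in hypoxia and 1.52, 1.23, 1.59 and 1.79 in control. Here control replicate 4 lay above hypoxia replicate 3 only, and the log2 difference was 0.33 (SE 0.15, unadjusted p = 0.0569, adjusted p = 0.333 in limma). Without control replicate 4 the main and the other probe had log2 differences of 0.47 and 0.41 (adjusted p = 0.245 and 0.250 in limma), and the difference of the main probe was 0.17 without control replicate 2. With the slide 2 controls alone the main probe differed by 0.58 (SE 0.15, adjusted p = 0.143 in limma). With the slide 3 controls alone it differed by 0.04 (SE 0.16, adjusted p = 0.935 in limma). The size of the TAC1 difference thus varied with the control slide, although its direction did not.

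TAC3 showed a low value in 1 hypoxia fetus. Its log2 level was -1.89, -3.66 and -2.39 on hypoxia replicates 1 to 3 and -1.68, -1.99, -2.23 and -2.49 on control replicates 1 to 4. Hypoxia replicates 1 and 3 lay within the control range, and hypoxia replicate 2 lay below every other array. The means were -2.65 ± 0.92 (SD, n = 3) in hypoxia and -2.10 ± 0.35 (SD, n = 4) in control. The log2 difference was -0.55 (SE 0.41, adjusted p = 0.528 in limma), with a 95% interval from -1.50 to 0.40. Without hypoxia replicate 2 it was -0.04 (SE 0.26, adjusted p = 0.962 in limma), and without hypoxia replicate 1 it was -0.93. Without control replicate 4 it was -0.68 (SE 0.44, adjusted p = 0.471 in limma). With the slide 2 controls alone it was -0.81, and with those of slide 3 it was -0.28. The lower mean of TAC3 in hypoxia therefore rested on 1 array.

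The 2 tachykinin precursors did not follow each other over the arrays. TAC1 was lowest on control replicate 2 and TAC3 on hypoxia replicate 2. On control replicate 4, where TAC1 was at its highest, TAC3 was lower than on the other control arrays.

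NPVF varied the most of the 5 genes among control fetuses. Its log2 level on the main probe was -2.004, -0.22, -1.03 and 0.41 on control replicates 1 to 4, a 5.31-fold range. In hypoxia it was -0.34, -0.48 and -1.29, a 1.93-fold range, and all of these lay inside the control range. Control replicate 1 had the lowest level and control replicate 4 the highest. The means were -0.70 ± 0.51 (SD, n = 3) and -0.71 ± 1.04 (SD, n = 4), a log2 difference of 0.01 (SE 0.55, adjusted p = 0.996 in limma). The 95% interval, -1.27 to 1.29, spans 0.414-fold to 2.44-fold, so these arrays are compatible with no change and with a change of that size in either direction. The other probe, with nearly the same sequence, gave 0.08 (SE 0.58). The centred levels of the probes differed by at most 0.18 on any array.

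The direction of NPVF depended on which controls were used. It was -0.42 without control replicate 1 and 0.38 without control replicate 4 on the log2 scale (adjusted p = 0.654 and 0.720 in limma). It was 0.41 with the slide 2 controls alone and -0.39 with those of slide 3.

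ADCYAP1, the PACAP precursor gene, was nearly level across the fetuses except on control replicate 4. Its log2 level on the main probe was 3.76, 3.63 and 3.57 on hypoxia replicates 1 to 3 and 3.61, 3.68, 3.62 and 4.42 on control replicates 1 to 4. The first 3 controls lay inside the hypoxia range, and control replicate 4 stood above all others, also on the other probe, where it was 4.13 against 3.19 to 3.51 elsewhere. The means were 3.65 ± 0.10 (SD, n = 3) and 3.83 ± 0.39 (SD, n = 4), a log2 difference of -0.18 (SE 0.21, adjusted p = 0.701 in limma). Without control replicate 4 the difference was 0.02 (SE 0.11, adjusted p = 0.966 in limma) and thus changed sign. Why ADCYAP1 stood high on that array was not tested. The other probe had a log2 difference of -0.14 (SE 0.22) with all arrays and 0.06 without control replicate 4.

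ADCYAP1R1, the PACAP receptor gene, was level between the groups. The log2 level of its higher probe was -4.97, -4.78 and -5.20 in hypoxia and -4.82, -4.89, -5.04 and -5.38 in control. Here control replicate 4 was the lowest array. The log2 difference was 0.05 (SE 0.17, adjusted p = 0.906 in limma), with a 95% interval from -0.34 to 0.45.

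GRP was low on 1 control array. Its log2 level on the main probe was -1.63, -1.69 and -1.98 on hypoxia replicates 1 to 3 and -2.79, -1.56, -1.21 and -1.39 on control replicates 1 to 4. Control replicates 2 to 4 lay above all hypoxia arrays, and control replicate 1 lay below them, so the control range enclosed the hypoxia range. The means were -1.77 ± 0.19 (SD, n = 3) and -1.74 ± 0.72 (SD, n = 4), a log2 difference of -0.03 (SE 0.36, adjusted p = 0.979 in limma) with a 95% interval from -0.88 to 0.82. Without control replicate 1, the array with the fewest spots above background, the difference was -0.38 (SE 0.15, adjusted p = 0.352 in limma). Without control replicate 4 it was 0.09 (SE 0.40). The other probe had a level of -3.23 on control replicate 1 and log2 differences of -0.05 with all arrays and -0.46 without that array (adjusted p = 0.309 in limma). With the slide 2 controls alone the difference of the main probe was 0.41, and with those of slide 3 it was -0.47.

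BRS3 encodes the bombesin receptor subtype 3, a relative of the GRP receptor that is found in the hypothalamus. Its log2 level was -2.81, -3.11 and -3.12 in hypoxia and -3.01, -2.76, -3.08 and -3.20 in control. The groups overlapped throughout, and the log2 difference was 0.00 (SE 0.14, adjusted p = 0.994 in limma).

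**Figure D2:**
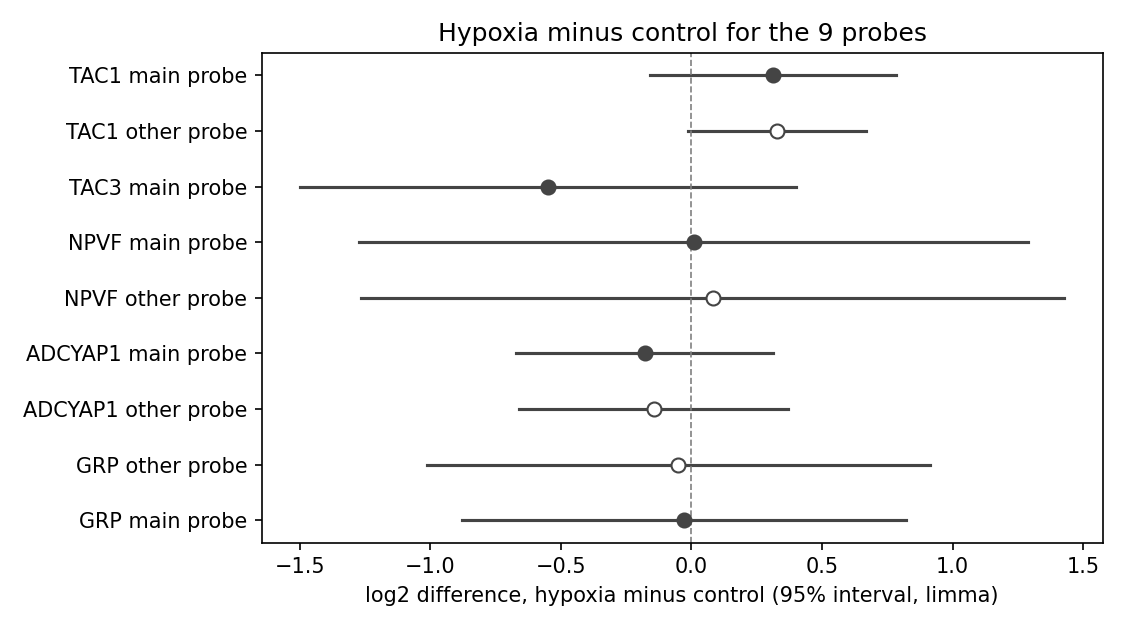
Log2 difference, hypoxia minus control, for the 9 probes with the 95% interval from limma, filled for main and open for other probes. All 9 intervals include 0; the widest are those of NPVF and the narrowest that of the other TAC1 probe.

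**Figure D3:**
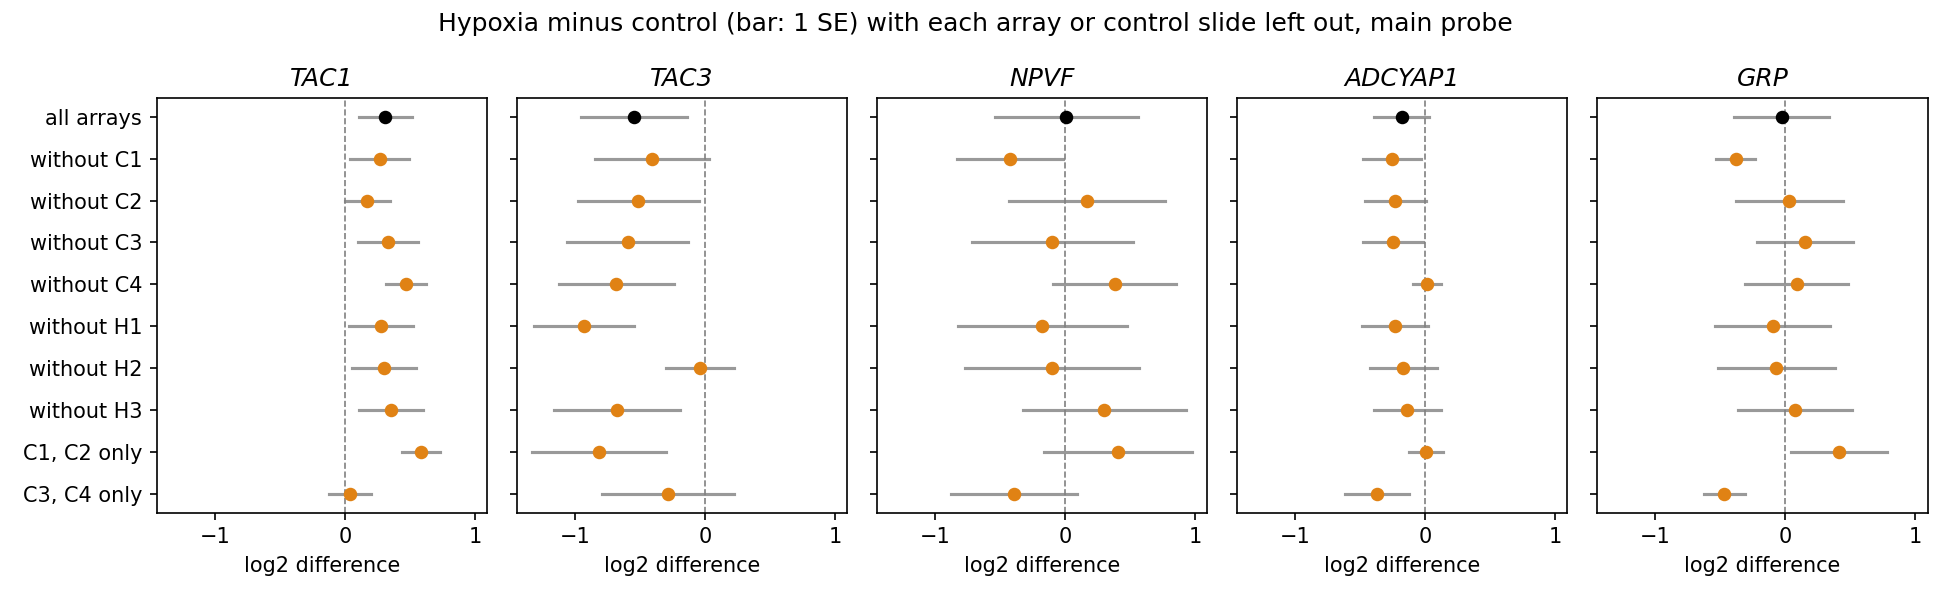
Log2 difference of each main probe with all arrays (black) and with each array or control slide left out (orange), with bars of 1 SE. TAC1 stays above 0 and TAC3 below 0, with TAC3 at -0.04 without hypoxia replicate 2, while NPVF, ADCYAP1 and GRP fall on both sides of 0.

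Spread among the control fetuses was wide for NPVF and GRP and moderate for the others. The SD over the 4 controls was 1.04 for NPVF, larger than that of 97.6% of the 12711 tested probes. It was 0.72 for GRP, larger than that of 94.0% of probes. TAC1, TAC3 and ADCYAP1 had SDs of 0.37, 0.35 and 0.39, at the percentiles 79.4, 76.9 and 81.0, beside a median of 0.20 over all probes. In the hypoxia group the order was another one, with TAC3 at 0.92 (percentile 98.8), NPVF at 0.51 (percentile 93.8) and GRP at 0.19 (percentile 56.0). TAC1 and ADCYAP1 had hypoxia SDs of 0.08 and 0.10, at the percentiles 16.6 and 24.1. These are descriptions of 4 and 3 fetuses, and the difference in spread between the groups was not tested.

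**Figure D4:**
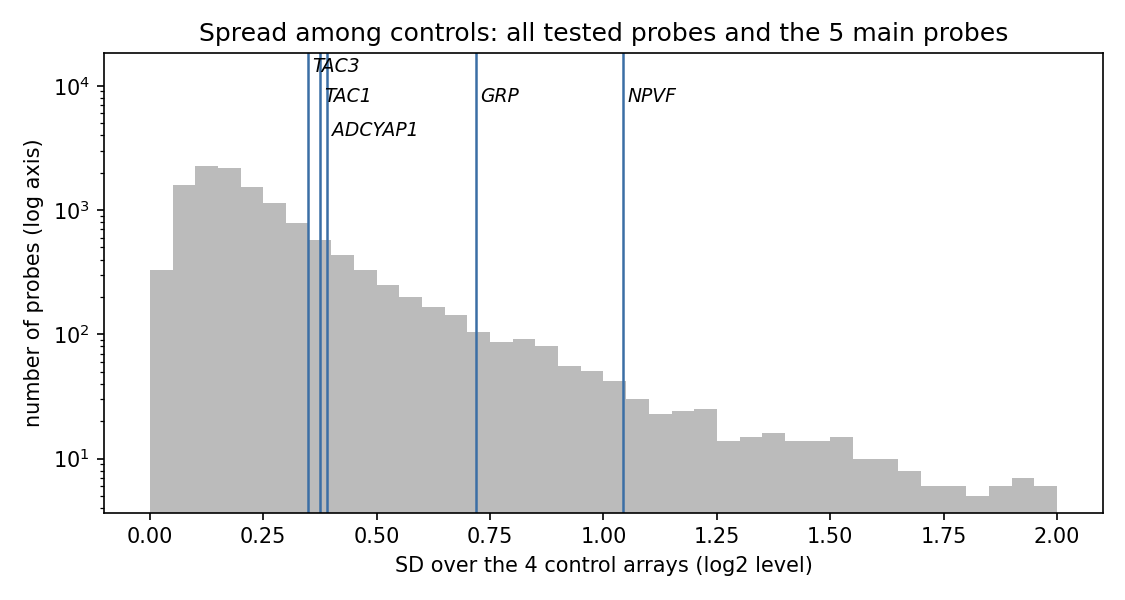
Number of tested probes (log axis) by SD of the log2 level over the 4 control arrays, with the 5 main probes as blue lines. The 43 probes with an SD above 2 are not drawn; GRP at 0.72 and NPVF at 1.04 lie in the sparse right part, TAC1, TAC3 and ADCYAP1 between 0.35 and 0.39.

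The mean log2 level on slide 2 and on slide 3 was 1.37 and 1.92 for TAC1, -1.11 and -0.31 for NPVF, 3.64 and 4.02 for ADCYAP1, and -2.18 and -1.30 for GRP. TAC3 went the other way, with -1.83 on slide 2 and -2.36 on slide 3. The single values of the slides overlapped for NPVF and ADCYAP1, and the difference between the slides was not tested. With 2 fetuses a slide, slide and fetus cannot be told apart. Control replicate 1 was the lowest array for NPVF and for GRP. It was also the lowest for GHRH, the growth hormone-releasing hormone gene, at a log2 level of -4.19 against -2.07 to -0.54 on the others. Of the 10 measured hypothalamic neuron markers, only GHRH and the somatostatin gene SST, at 3.37, were lowest there. POMC, AGRP, NPY, PMCH and ISL1 were lowest on control replicate 2. OXT was lowest on control replicate 4, ARNT2 on hypoxia replicate 3 and NR5A1 on hypoxia replicate 2.

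Patterns over the 7 arrays were compared by the root mean square difference between the log2 levels of a pair of genes, each centred on its own mean. Over 741 other named genes, the patterns most like that of TAC1 were those of HR, the hairless gene (0.13), of HSP90AA1, a chaperone gene (0.15), and of MRPL32, a mitochondrial ribosomal protein gene (0.16). The median over all genes was 0.37. For TAC3 they were the growth factor receptor gene FGFR3 (0.27), the crystallin gene CRYBB3 (0.35) and the prohormone convertase gene PCSK1 (0.39), beside a median of 0.67. All 3 were, like TAC3, lowest on hypoxia replicate 2, which a choice by likeness to TAC3 favours. For NPVF they were TNFSF13B, a B-cell survival factor gene (0.37), the integrin gene ITGAL (0.46) and the prolactin receptor gene PRLR (0.47), against a median of 0.76. For ADCYAP1 they were the ribosomal protein genes RPL4 (0.14) and RPS12 (0.15) and the complement gene C3 (0.16), against a median of 0.37. For GRP they were the growth factor gene FGF7, the fructose transporter gene SLC2A5 and the vitamin D hydroxylase gene CYP24, at 0.25 each, against a median of 0.54. A gene with no variation over the arrays would stand at 0.29 from TAC1, 0.60 from TAC3, 0.73 from NPVF, 0.28 from ADCYAP1 and 0.48 from GRP. All of the named genes lay closer than that, but they were chosen as the nearest of 741. How close the nearest genes would lie by chance was not tested.

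Few other genes of these pathways were named on the array. Of 11 receptors listed, ADCYAP1R1 and BRS3 were measured. Of 14 related peptides, 3 were on the array and 2 were tested, and 0 passed the adjusted threshold in limma. The prolactin-releasing peptide gene PRLH, whose product is another RFamide peptide, had log2 levels of -2.41, -1.91 and -2.44 in hypoxia and -3.43, -3.61, -2.62 and -2.93 in control. All 3 hypoxia values lay above all 4 controls, as those of 16.2% of all probes lay to one side. The log2 difference was 0.89 (SE 0.26, adjusted p = 0.215 in limma), 3 of 3 hypoxia fetuses being higher. With the slide 2 controls alone it was 1.27 (SE 0.21, adjusted p = 0.0535 in limma). With those of slide 3 it was 0.52 (SE 0.21, adjusted p = 0.400 in limma). GNRH1, the gonadotropin-releasing hormone gene, differed by 0.18 on the log2 scale (SE 0.64), and its level was -6.20 on control replicate 4, below the -4.42 to -3.23 of the first 3 controls. Without control replicate 4 its difference was -0.40.

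Of 12 prohormone processing and granule genes, 3 were on the array, 2 were tested and 0 passed. PCSK1, which cuts peptide precursors, had log2 levels of -2.15, -2.68 and -2.35 in hypoxia and -1.90, -1.94, -2.22 and -2.19 in control. Its log2 difference was -0.33 (SE 0.16, adjusted p = 0.353 in limma), and hypoxia replicate 1 lay above 2 of the controls. Without hypoxia replicate 2 the difference was -0.188, and with the slide 3 controls alone -0.189. CPE, the carboxypeptidase that trims the cut peptides, had a difference of -0.03 (SE 0.13, adjusted p = 0.943 in limma). Of 11 reproductive neuroendocrine genes, 9 were on the array and 7 were tested. They had a median log2 difference of 0.18, with 4 higher and 3 lower, beside the median of 0.03 over all probes, and 0 passed. The estrogen receptor beta gene ESR2 was the highest at 0.65 (SE 0.28, adjusted p = 0.328 in limma). Its difference was 0.40 without hypoxia replicate 3, 0.28 with normexp background correction and 0.13 with normexp and quantile normalization. ESR2 was not well above background on every array. Of 20 receptor signalling genes, 3 were tested and 0 passed. CREM, a cyclic AMP-responsive transcription factor gene, was the highest at 0.44 (SE 0.13, adjusted p = 0.215 in limma; 0.26 with normexp and quantile normalization) and the protein kinase A gene PRKACA the lowest at -0.02 (SE 0.23). At an unadjusted p under 0.05, where 15.7% of all probes stood, were 1 of 2 related peptides, PRLH, 1 of 3 signalling genes, CREM, and 1 of 7 reproductive genes. The last was LHB, the luteinizing hormone beta gene, at 0.39 (SE 0.13, adjusted p = 0.250 in limma), named after its value was seen.

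**Figure D5:**
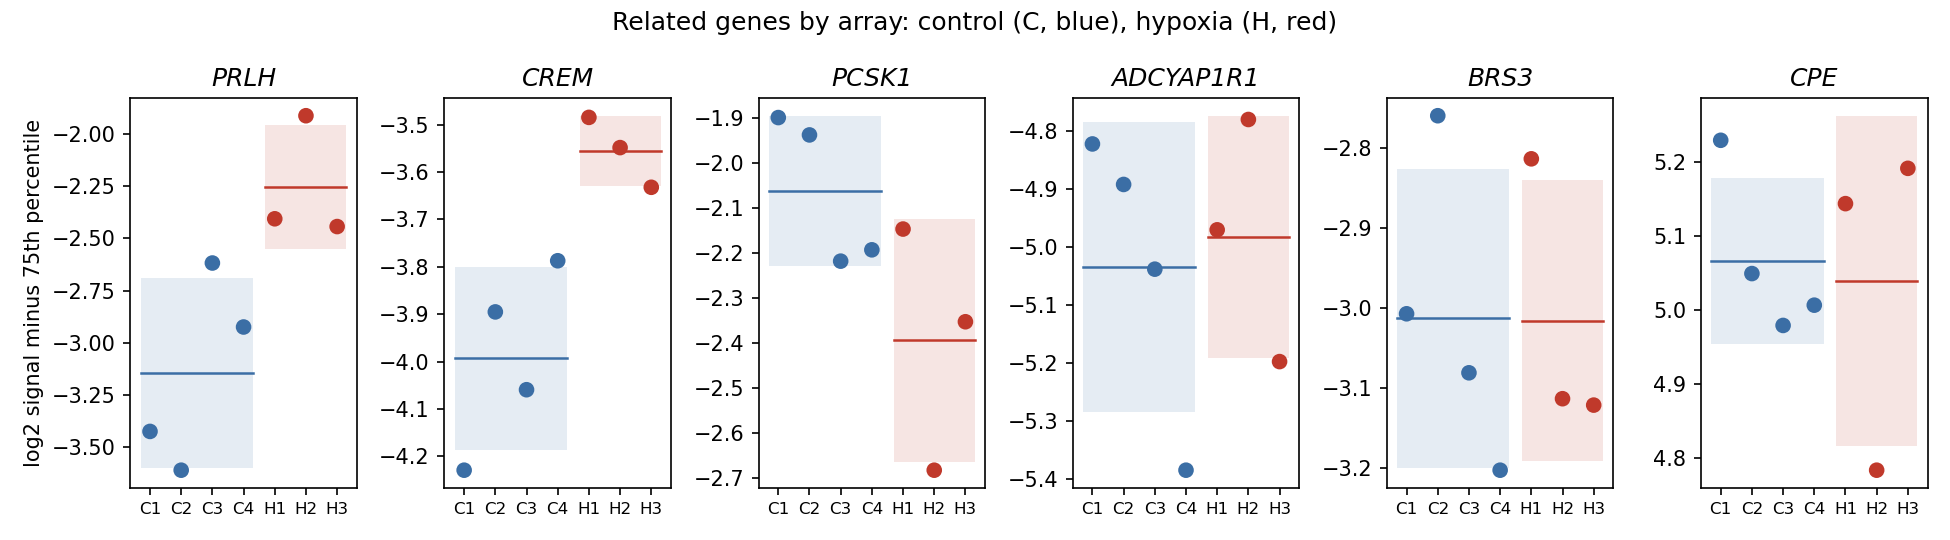
Log2 level by array of 6 related genes in controls (C, blue) and hypoxia (H, red), with group means as lines and 1 SD as bands; the vertical scale differs between genes. In PRLH and CREM the hypoxia points lie above all controls, at adjusted p = 0.215 each in limma, while PCSK1, ADCYAP1R1, BRS3 and CPE overlap.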

How the data were processed

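Hypothalamic RNA of 3 hypoxia and 4 control fetuses was labelled with Cy3, 1 array per fetus. Per the file headers, Agilent Feature Extraction 10.1.1.1 produced the spot intensity values, with spatial and multiplicative detrending on and the background correction setting off. Values deposited in the series' table equal log2 of this processed intensity within 5e-09, unscaled between arrays; their column medians ran from 8.31 to 8.87. Levels here are log2 processed intensity minus the array's 75th percentile. Control spots and outlier spots were left out and repeat spots were averaged, after which 34 probe values were missing. Of the 91 readings of the members, 1 was an outlier and 0 were saturated. The test took each probe that 3 or more arrays showed well above background and used limma 3.58.1 in R 4.3.3, 2-sided, with Benjamini-Hochberg adjustment over 12711 probes. The procedure was tested on simulated data with independent noise and no slide effect. That does not show whether differences as small as those of the members could be detected. Probes were named by RefSeq accession (726), gene ID (125), symbol (498), synonym (20) or file description (13), and 13626 were unnamed here. The rule for named genes took all member probes, the 3 genes with the most similar pattern for each, the measured receptors and the highest and lowest gene of each of 4 further lists; 1 of these is not reported here. Of 11 lists, those of general neurons and of thalamus had 0 genes on the array. The median log2 difference was -0.37 for the 4 measured meningeal genes, -0.03 for the 10 hypothalamic neuron genes, 0.57 for the 4 tested pituitary genes and 0.17 for the 2 erythroid genes, and 0 of these passed. The erythroid summed level was highest on control replicate 4, at 37.0, against 4.13 to 17.4 elsewhere. The members and lists were chosen with earlier results of these data known. The groups share replicate numbers 1 to 3. Deviations of same-numbered arrays correlated at 0.122, 0.087 and 0.108 over probes. Arrays of different number were not compared, so these values cannot decide whether the numbers mark pairs. In the main test the numbers were not taken as pairs. Alternatives covered scaling, background correction, filters, slide, replicate number, each array left out, the variance prior, array weights and an ordinary linear model; those on the control SDs were added after the data were seen.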

Additional observations from a re-analysis of the deposited data

Results flagged for a closer look

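Each group of 4 control arrays was examined for a single value far from the rest, in 22 genes or probes. This picked out 3 values, where about 1.1 would arise by chance. The members and lists were chosen with earlier results of these data known, so the 1.1 is a rough guide. ADCYAP1 reached a log2 level of 4.42 on its main probe in control replicate 4, while the remaining controls lay between 3.61 and 3.68. The other ADCYAP1 probe, at 4.13 there and 3.19 to 3.43 in the remaining controls, is not among the 3 values. In the same fetus PRL reached 1.13, with the remaining controls between -3.80 and -3.46. ESR2 stood at -5.47 in control replicate 2, with the remaining controls between -6.33 and -6.25. Unlike the member probes, ESR2 was not well above background on every array. How much its low signal adds to this value was not tested.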

How the results depend on the processing

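TAC1 stayed higher and TAC3 lower in hypoxia in each alternative run, at 0.04 to 0.58 and -0.93 to -0.04 on the log2 scale, and 0 of 9 member probes passed the adjusted threshold of limma in any of them. At an unadjusted p under 0.05 stood 2 of 9 against either control slide alone, with the replicate block and without control replicate 1 or 4, and 1 of 9 without hypoxia replicate 1, with quantile normalization and with the trended and robust prior, where 10.5% to 17.2% of all probes did under these settings. Of 114 alternatives on the 5 main probes, 96 kept the direction. Over all probes, 2 passed the adjusted threshold, which became 0 with quantile normalization, the percentile over probes seen on all arrays, no filter, the replicate block or the ordinary linear model. It became 4 with array weights or against control slide 3, 10 with normexp, 25 with the stricter filter, 35 with normexp and quantile normalization, 57 with the trended and robust prior and 232 against control slide 2, and ran from 0 to 6 with each array left out. With each array left out, the log2 difference ran from -0.42 to 0.38 for NPVF, -0.25 to 0.0151 for ADCYAP1 and -0.38 to 0.15 for GRP, and for their other probes from -0.40 to 0.45, -0.26 to 0.0557 and -0.46 to 0.13. It ran from -0.0652 to 0.16 for ADCYAP1R1, -0.10 to 0.0809 for BRS3, -0.40 to 0.59 for GNRH1, -0.10 to 0.10 for CPE and -0.21 to 0.13 for PRKACA. Turned signs were as follows. NPVF was at -0.024 with median scaling, -0.0102 with quantile normalization, -0.0919 with array weights and -0.39 against control slide 3, and its other probe at -0.0471 and -0.37 in the last pair. Against control slide 2, ADCYAP1 and its other probe were at 0.008 and 0.0776, GRP and its other probe at 0.41 and 0.47, ADCYAP1R1 at -0.13 and GNRH1 at -0.69. With the replicate block they were at 0.0151 and 0.0557, 0.0875 and 0.13, -0.0652 and -0.40; control replicate 4 has no partner there, so these equal the values without it. With the deposited values GRP was at 0.0075, BRS3 at 0.0327, CPE at 0.0097 and PRKACA at 0.0119. ADCYAP1R1 was at -0.0716 with quantile normalization and -0.0308 with normexp and quantile normalization, CPE at 0.0032 with quantile normalization, and BRS3 at 0.0138 with the percentile over probes seen on all arrays. Against control slide 3, BRS3 was at 0.13, CPE at 0.0467 and PRKACA at 0.23. With array weights, BRS3 was at 0.0373, PRKACA at 0.0381 and CPE at 0.0179. The cause was not tested. Slide as a random block had an estimated correlation of -0.0317. With it the count of all probes past the adjusted threshold was again 2, and 0 of 9 member probes passed. Each slide held a single group, so this block cannot separate slide from group. The members' signals lay at 174 or more, against a lowest signal above background of 11.9 to 21.3 on the arrays; what limits the precision was not tested.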
